A study of Arabidopsis thaliana with 20 samples.

Results

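The 4 genes described here encode the HSP101 and ClpB disaggregases of Arabidopsis thaliana and one partner protein: HSP101 (AT1G74310) of the cytosol, CLPB3 (AT5G15450) of the chloroplast, CLPB4 (AT2G25140) of the mitochondrion, and HSA32 (AT4G21320), which acts with HSP101 in long-term acquired thermotolerance. They were chosen by locus identifier, and a gene counted as having a peak when any row of a peak list named the gene or its promoter. All 4 were among the 27444 nuclear protein-coding genes of the reference table, of which 4614 had a peak in at least 1 list.

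The lists come from chromatin immunoprecipitation and sequencing of HSFA1d, a class A1 heat shock factor, in whole seedlings 2 weeks old. All plants, untreated ones included, carried the pHSFA1d::HSFA1d-GFP transgene in a background mixed from Col-0 and Ws. The fusion was driven by the HSFA1d promoter and precipitated with an antibody against GFP, and plants without the fusion were not analysed here. The heat series had 30 min at 37 °C (HS) and its untreated time 0 (HT0), each with 3 ChIP and 3 input samples. In the wounding series, seedlings were cut with a razor blade and kept for 10 min (W10min), 3 h (W3h) or 24 h (W24h), beside seedlings of time 0 (WT0). The labels call HT0 and WT0 0 minutes of heat or wounding, and both are taken here as untreated. Each condition of the wounding series, WT0 included, had 1 ChIP and 1 input sample. Each sample held about 60 seedlings grown at 22 °C. Reads were concatenated per condition, so each condition has 1 peak list, the values carry no replicate error, and no test between conditions was possible. In whole seedlings, fewer cells with bound factor and less binding per cell cannot be told apart.

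Disaggregases of the HSP100/ClpB family are ring-shaped ATPases that pull single polypeptides out of protein aggregates through a central pore. They work with HSP70 and HSP40 chaperones, which deliver the aggregate and refold what is released, and small heat shock proteins keep aggregates in a form that can be opened. HSP101 is needed for acquired thermotolerance, the survival of severe heat after a mild heat treatment, and HSA32 prolongs this state in a mutual relation with HSP101. CLPB3 is known for its part in chloroplast development, and CLPB4 is the mitochondrial form. Class A1 heat shock factors are known to switch on chaperone genes in heat by binding heat shock elements near their starts.

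The heat lists held 2103 peaks (HS) and 1336 (HT0), and the wounding lists 1483 (WT0), 1445 (W10min), 626 (W3h) and 509 (W24h). Depth per library is unknown beyond the floor of 10 M mapped reads in the labels. The strength of a peak is the authors' fold enrichment of ChIP over control, which ranks peaks only within its own list. The median fold of a list lay between 1.67 in HT0 and 1.96 in W10min, and the highest fold between 3.51 in HT0 and 8.30 in W10min. The authors' q is the false discovery rate of the peak, and between 51.1% (WT0) and 61.5% (W3h) of the peaks of a list had a q of at most 0.05. In tied folds, the rank given is the highest of the tied peaks.

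After heat, HSFA1d peaks lay over the start of all 4 genes, and none of them had a peak in the untreated seedlings of the same series. HSP101 and CLPB4 had folds near the top of the HS list, at 5.16 and 4.96, while CLPB3 had 3.63 and HSA32 3.09. Over all coding genes, 7.82% had an HS peak and 3.11% an HT0 peak. Of coding genes without an HT0 peak, 6.21% had one in HS, against 4 of 4 here. Lacking an HT0 peak was the usual case for HS peaks this high, since of the 317 coding genes with an HS fold of at least 3.09, the lowest of the 4 genes, 271 (85.5%) had none in HT0. Neighbouring genes can share a peak, and the genes were chosen with these lists already known, so the counts are descriptive.

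The HSP101 peak in HS ran over chromosome 1, 27939442 to 27940898 (TAIR10). Its fold was 5.16 and its q 7.54e-37. It ranked 13 of 2103 peaks by fold, a value that 3 peaks shared, and 24 coding genes had a peak of higher fold. The peak was 1457 bp wide, against a median of 144 bp in the list, and ranked 59 by width. It reached 708 bp into the promoter and 749 bp into the gene, so that its midpoint lay 20 bp inside the gene from the annotated start. In HT0 the nearest listed peak was 41170 bp away. Among the 1409 HS peaks that met no HT0 peak, 6 had a higher fold than that of HSP101.

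The CLPB4 peak in HS ran over chromosome 2, 10701787 to 10702527, at 4.96-fold (q 2.91e-34). It ranked 22 of 2103 and was 741 bp wide, 375 bp of it in the promoter and 366 bp in the gene. The mitochondrial form was thus close to HSP101 in rank, with 42 coding genes above it in fold. In HT0 the nearest listed peak was 18818 bp away.

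The CLPB3 peak in HS ran over chromosome 5, 5018182 to 5018800, at 3.63-fold (q 2.07e-17). It ranked 101 of 2103, on a fold shared by 6 peaks, and lay more to the promoter side than the other peaks, with 453 bp in the promoter and 166 bp in the gene. The HSA32 peak ran over chromosome 4, 11340080 to 11340638, at 3.09-fold (q 1.42e-11), and ranked 166. It was nearly centred on the annotated start, with 282 bp upstream of it and 277 bp in the gene. In HT0 the nearest listed peaks were 110830 bp from the CLPB3 peak and 114704 bp from the HSA32 peak.

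**Figure D1:**
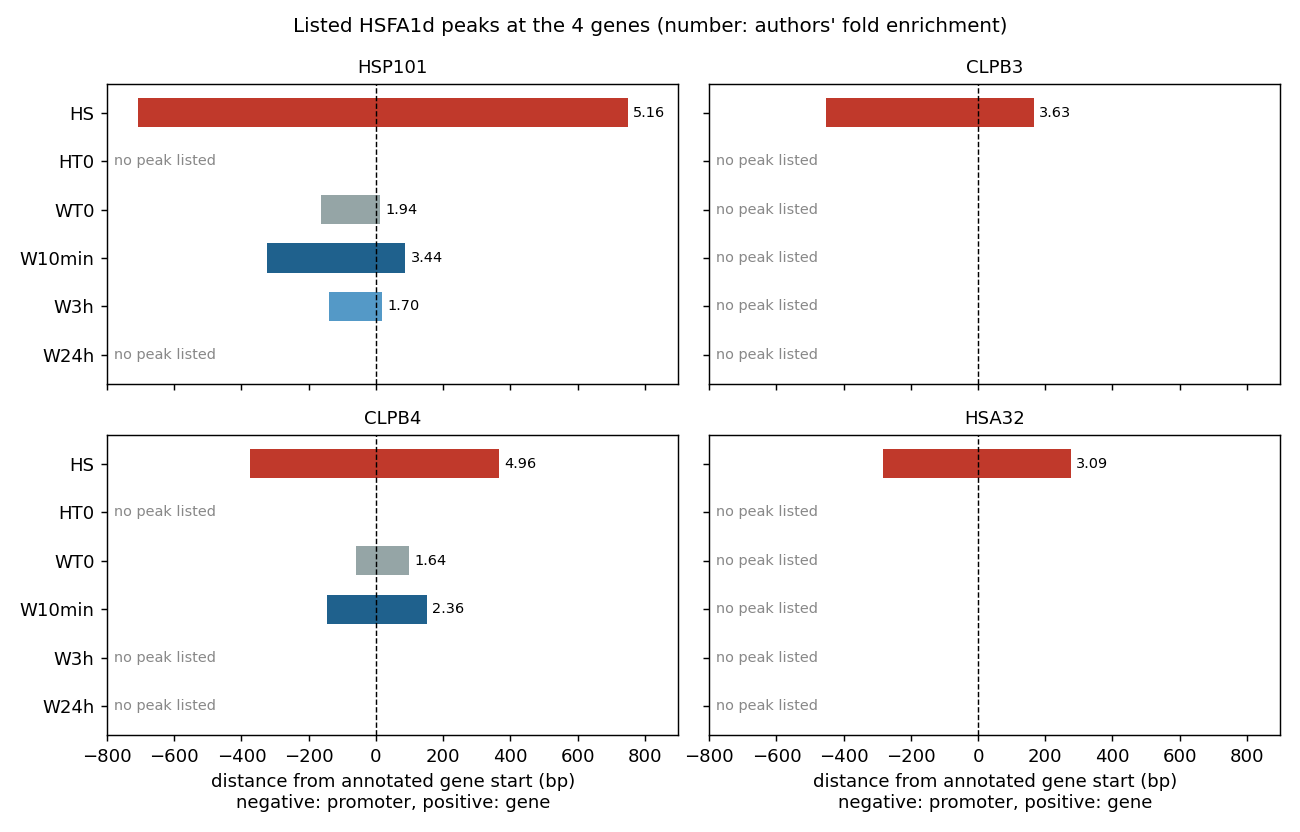
Listed peaks at HSP101, CLPB3, CLPB4 and HSA32 in the 6 lists, as distance in bp from the annotated gene start (negative in the promoter, positive in the gene). Each bar is 1 peak, with the authors' fold beside it, from 5.16 at HSP101 in HS down to 1.64 at CLPB4 in WT0, and every bar crosses the start.

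The peaks at the 4 genes were alike in position, but the genes were chosen with these lists already known. All 9 peaks listed at them, over 4 lists, covered the annotated start, meaning the point where the lists change from promoter to gene. The peaks of the wounding series among the 9, WT0 included, lie within the HS peaks of HSP101 and CLPB4, so the 9 are not separate places. Of all coding genes with a peak in HS, 22.9% had a peak that covered both promoter and gene. That share was 20.8% in WT0, 22.4% in W10min and 26.4% in W3h. Among the 172 HS peaks with a fold of at least 3.09, the lowest of the 4 genes, such peaks were found at 142 of 317 coding genes (44.8%). The widths of the 4 HS peaks, 1457, 741, 619 and 559 bp, compare with a median of 605.5 bp for these 172 peaks (quartiles 472.75 and 798 bp), so that only the HSP101 peak lay outside the middle range. The lists do not divide genes into exons and introns, and where within the transcript the gene side of each peak falls was not analysed here. The RefSeq table begins HSP101 and CLPB4 further upstream than the lists do, so for these genes the split of a peak between promoter and gene, and whether a narrow peak covers the start, depend on the annotation.

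Several of these peaks were annotated to neighbours as well. The HSP101 peak was listed in all 4 of its lists for the promoter of AT1G74320, which runs in the opposite direction, and in HS also for the body of that gene. The CLPB3 peak covered 90 bp of MUB2, a membrane-anchored ubiquitin-fold gene, and the CLPB4 peak in HS covered 165 bp of AT2G25150. The HSA32 peak also fell in the promoters of AT4G21310 and AT4G21323. The lists alone cannot assign the peak of HSP101 or HSA32 to 1 of these genes. Of the HS peaks that touched a coding gene, 50.5% touched at least 2.

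In the wounding series HSP101 and CLPB4 had peaks and CLPB3 and HSA32 had none at any time. HSP101 had a fold of 1.94 in WT0, 3.44 in W10min and 1.70 in W3h, and no peak in W24h. CLPB4 had a fold of 1.64 in WT0 and 2.36 in W10min, and no peak in W3h or W24h. A peak was therefore listed for 2 of the 4 genes in WT0 and for 2 in W10min, for 1 in W3h and for 0 in W24h. Among all coding genes the shares were 7.1% in WT0 and 7.1% in W10min, then 2.55% in W3h and 1.46% in W24h.

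At 10 min the HSP101 peak ran over chromosome 1, 27940103 to 27940515, with rank 124 of 1445 and a q of 1.87e-12. The WT0 peak ran over 27940178 to 27940354, with rank 517 of 1483 on a fold shared by 88 peaks, and a q of 0.0218. The HSP101 fold was 1.76 times the median fold of the list in W10min and 1.07 times that median in WT0. HSP101 thus stood well above the middle of the W10min list and near the middle of the WT0 list. The W10min list had a higher median fold than the WT0 list, 1.96 against 1.82, and a higher maximum, 8.30 against 5.22, and the part of this in the HSP101 values was not tested. In W3h the HSP101 peak ran over 27940173 to 27940330, with rank 394 of 626 and a q of 0.169, at 0.935 times the median fold of that list. The W3h peak therefore did not reach a q of 0.05 and stood below the middle of its list.

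The HSP101 peaks overlapped at the same place. The W10min peak, of 413 bp, lay wholly within the HS peak, and the peaks of WT0 (177 bp) and W3h (158 bp) lay wholly within the W10min peak, each of them reaching past the other on one side. All 4 shared the 153 bp from 27940178 to 27940330, which cover the annotated start. The HSP101 peaks of the wounding series, untreated WT0 included, lay mostly in the promoter, against 48.6% of the HS peak. The promoter held 92.7% of the WT0 peak, 78.7% of the W10min peak and 88.6% of the W3h peak.

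At CLPB4 the W10min peak ran over chromosome 2, 10702001 to 10702298, with rank 285 of 1445 and a q of 1.78e-04. The WT0 peak ran over 10702054 to 10702210, with rank 1155 of 1483, a q of 0.603 and 0.900 times the median fold of its list. CLPB4 had a weak WT0 peak that falls short of a q of 0.05. The WT0 peak (157 bp) lay within the W10min peak (298 bp), and this within the HS peak. As at HSP101, the HS peak was the widest and had the best rank within its list. The midpoints of the 3 CLPB4 peaks lay within 25 bp of each other, with that of HS 5 bp upstream of the annotated start. Unlike at HSP101, the promoter held no more of the peaks of the wounding series, untreated WT0 included, than of the HS peak. It held 36.9% of the WT0 peak and 49.0% of the W10min peak, against 50.6% of the HS peak.

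Of coding genes with a WT0 peak, 59.5% had none in W10min, 79% none in W3h and 87.1% none in W24h. HSP101 and CLPB4 both had a peak in W10min, HSP101 alone in W3h and neither in W24h. Of coding genes without a WT0 peak, 4.55% had one in W10min, 1.14% in W3h and 0.588% in W24h, against 0 of 2, CLPB3 and HSA32, in each. In W10min the nearest listed peak was 33235 bp from the HS peak of CLPB3 and 5469 bp from that of HSA32. A peak that is not listed does not show that the factor was absent, since depth is unknown and the later lists are short.

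**Figure D2:**
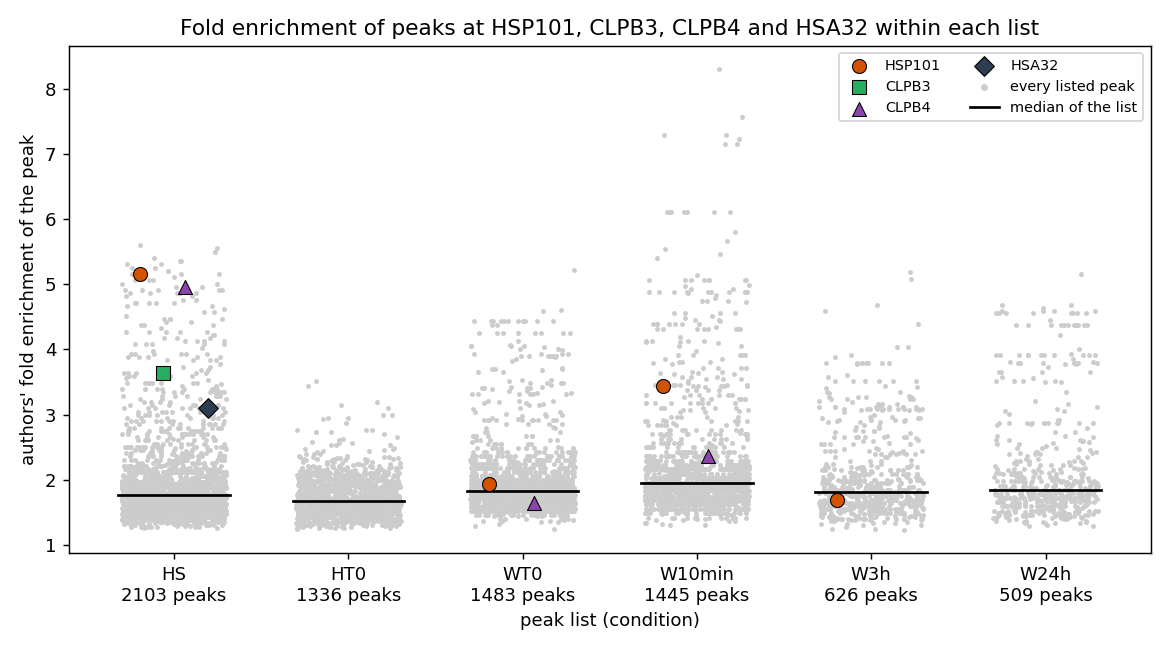
Authors' fold enrichment of every listed peak (grey points) in the 6 lists, with the list median as a line and the peaks of HSP101, CLPB3, CLPB4 and HSA32 as coloured symbols. HSP101 lies near the top in HS (5.16), well above the median in W10min (3.44) and close to it in WT0 (1.94) and W3h (1.70), and no symbol appears in HT0 or W24h.

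The 2 untreated lists differed at these genes. HSP101 and CLPB4 had no peak in HT0, with reads of 3 ChIP samples, and weak peaks in WT0, with reads of 1. Over all coding genes a peak was listed for 3.11% in HT0 and 7.1% in WT0, so the WT0 list named more coding genes. The lists were closer in length, with 1336 peaks in HT0 and 1483 in WT0. Of these, 793 touched a coding gene in HT0 and 1362 in WT0, and the median peak width was 128 and 218 bp. With both untreated lists as control, CLPB3 and HSA32 had a peak in HS alone, while HSP101 and CLPB4 did not.

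CLPB3 and HSA32 belonged to the 929 coding genes with a peak in HS and in no other list, 3.39% of all coding genes. The median of the highest HS fold per gene was 1.82 in this group. CLPB3, at 3.63, was exceeded by 28 of these genes, and HSA32, at 3.09, by 56. Of the 317 coding genes with an HS fold of at least 3.09, 242 (76.3%) also had a peak in W10min, 131 (41.3%) in WT0 and 148 (46.7%) in W3h. The pattern of HSP101, with peaks in HS, WT0, W10min and W3h, was that of 81 coding genes, and the pattern of CLPB4, in HS, WT0 and W10min, that of 123.

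The genes nearest to HSP101 in pattern were found from the percentile rank of the strongest peak of each gene in the 6 lists, by Euclidean distance in percentage points. The first was AT1G74320, at a distance of 0, because it is listed on the same peaks. TPR5 and PBG1, a proteasome subunit gene, which stand on peaks of identical folds, came next at 17.84, then AT1G26800 at 21.6, and THI1, a gene of thiamine synthesis, at 21.8. AT1G26800 had a fold of 4.72 in HS and 2.84 in W10min, TPR5 and PBG1 3.39 and 2.90, and THI1 2.36 and 2.26. For HSA32, 5 genes were at a distance of 0 because their HS peaks had the same fold of 3.09: GAMMA-TIP, a vacuolar water channel, BZIP17, a membrane-tethered transcription factor of the stress response, AT2G40955, and the neighbours AT4G21310 and AT4G21323. The neighbours AT4G21310 and AT4G21323 are listed on the HSA32 peak itself. Between different peaks, a shared fold is no sign of shared binding, since folds take few distinct values.

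Among the HSP100 and Clp ATPases the peaks were at the 3 ClpB genes already described. Of 10 genes listed, 3 had an HS peak and 0 an HT0 peak, and these 3 were HSP101, CLPB3 and CLPB4. The other 7 had a peak in none of the 6 lists. They are CLPB2, a ClpB relative, CLPC1, CLPC2 and CLPD, chloroplast ATPases that feed the Clp protease or import, and CLPX1, CLPX2 and CLPX3, the mitochondrial relatives of bacterial ClpX. Over all coding genes, 7.82% had an HS peak, 3.11% an HT0 peak, and 4614 of 27444 a peak in at least 1 list. Most coding genes thus had no peak in any list, and its absence at these 7 is not read as a result about them.

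The partner chaperones that work with disaggregases had peaks in larger numbers. Of 19 genes for HSP70, HSP40 and cytosolic small heat shock proteins, 18 had an HS peak and 3 an HT0 peak, with a median highest fold among those with a peak of 4.69 in HS and 1.72 in HT0. Over all coding genes with a peak, that median was 1.87 in HS and 1.64 in HT0. In the wounding series 8 of the 19 had a peak in WT0 and 14 in W10min, followed by 9 in W3h and 4 in W24h. For comparison, the HS list named 7.82% of all coding genes and the HT0 list 3.11%. The WT0 and W10min lists each named 7.1%, the W3h list 2.55% and the W24h list 1.46%. The 19 genes were chosen with earlier results of these data known, so the counts are descriptive. HSP70-4 (AT3G12580) stood at a fold of 5.55 in HS, and it had no HT0 peak. HSC70-3 and HSC70-1, the constitutive cytosolic forms, stood at 5.501 and 5.30 in HS (ranks 3 and 7 of 2103) and at 1.72 and 1.75 in HT0 (ranks 554 and 510 of 1336). HSP17.8, a small heat shock protein, stood at 5.30 in HS with no HT0 peak.

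In W10min HSC70-1 ranked 1 of 1445 by fold, and in WT0 it already ranked 2 of 1483. HSC70-3 ranked 6 in W10min and 80 in WT0. The HSP40 gene J3, whose protein loads HSP70, ranked 68 in W10min and 228 in WT0. Among the 14 partner genes with a W10min peak, 6 had a higher fold than the 3.44 of HSP101 and 8 a lower one. Among the 18 with an HS peak, 6 had a higher fold than the 5.16 of HSP101 and 12 a lower one. These counts are of genes, and some neighbouring small heat shock protein genes had the same fold and q in HS and in W10min. A shared peak may therefore be counted for more than 1 gene. The partners above HSP101 were 6 of 8 in WT0 and 9 of 9 in W3h.

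The organelle HSP70 genes, set beside the disaggregase gene of the same organelle, were chosen after their values were seen. In the chloroplast, cpHSC70-2 ranked 43 of 2103 in HS and had no peak in HT0. In the wounding series it ranked 121 in WT0 and 6 in W10min, then 43 of 626 in W3h and 171 of 509 in W24h. The second form, cpHSC70-1, ranked 180 in HS, had no peak in HT0, and ranked 228 in WT0 and 147 in W10min. CLPB3 was in HS alone, so the chloroplast HSP70 genes had peaks in the wounding series, WT0 included, where the chloroplast disaggregase gene had none. In the mitochondrion, mtHSC70-2 ranked 17 in HS and 685 of 1336 in HT0, and 270 in WT0, 87 in W10min and 192 in W3h, while mtHSC70-1 had no peak in any list. CLPB4 and mtHSC70-2 both had peaks in HS, WT0 and W10min.

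**Figure D3:**
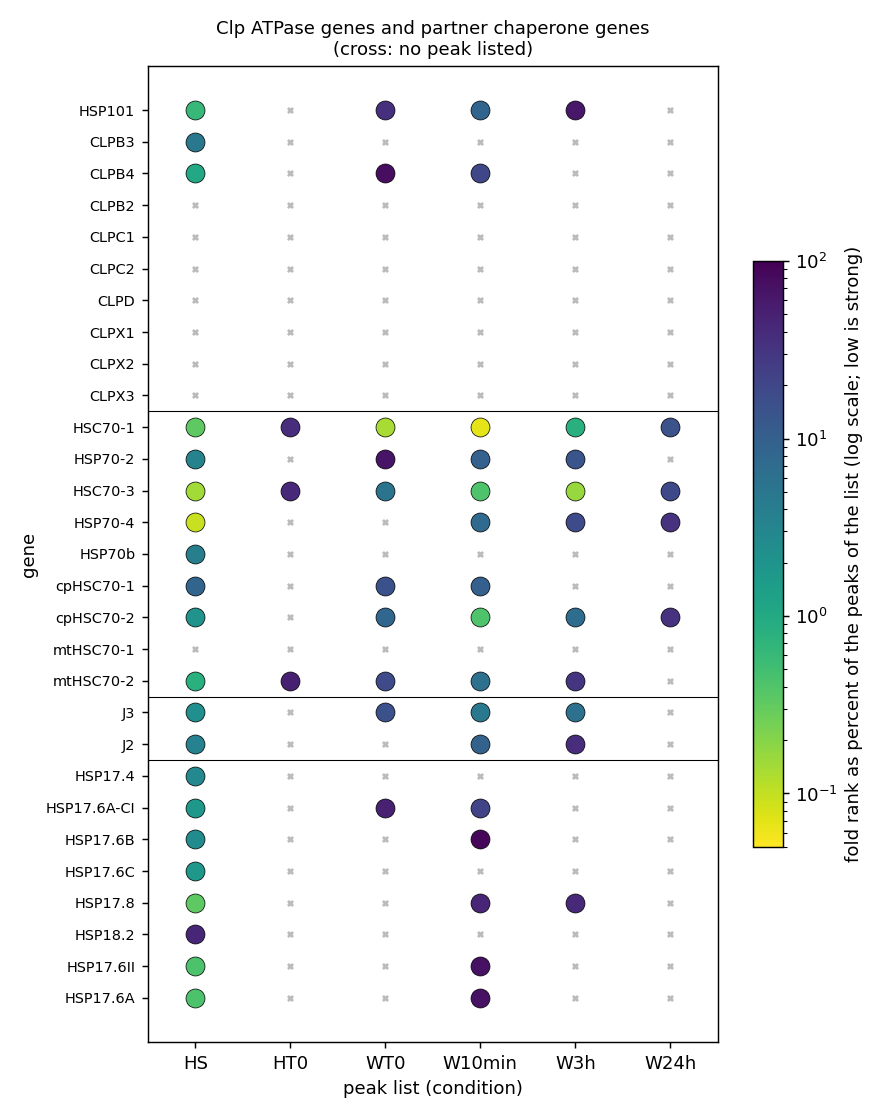
Peaks at 10 Clp ATPase genes (top), 9 HSP70, 2 HSP40 and 8 small heat shock protein genes in the 6 lists, with colour giving the fold rank as a percent of the peaks of the list on a log scale. Circles are filled in HS for 3 of 10 Clp ATPase and 18 of 19 partner genes, and in W10min for 2 and 14.

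A further group holds 10 genes tied to the memory of heat, among them HSP101 and HSA32. Of the 8 others, 6 had an HS peak and 1 an HT0 peak. In the wounding series 3 had one in WT0 and 3 in W10min, and 2 had one in W3h and 1 in W24h. As background, 7.82% of all coding genes had a peak after heat (HS) and 3.11% before it (HT0). For wounding, that share was 7.1% both at time 0 (WT0) and at 10 min, 2.55% at 3 h and 1.46% at 24 h. HSFA2, a heat shock factor that sustains the response, ranked 1 in HS and 156 in HT0, and 5 in W10min against 80 in WT0. ROF1, a peptidyl-prolyl isomerase that binds HSP90, ranked 11 in HS with no peak in HT0, and 29 in W10min against 311 in WT0. HSFA3, a later heat shock factor, had none in HS or HT0, and weak peaks in W10min (q 0.507) and WT0 (q 1). HSP22, APX2, HSP21 and HSP18.2, named after their values were seen, had a peak in HS and in no other list, as HSA32 did, with folds of 2.95, 2.16, 2.01 and 1.82. In HS HSP101 ranked just below ROF1, at 13 against 11, and HSA32 stood at 166.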

How the data were processed

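Per the labels, fastq files were concatenated per condition. Bowtie2, SAMtools, MACS2 and the TAIR10 build are named, per the submitters' processing notes, and their versions and the annotation step were not given in the sources used here. Fold enrichment is a deposited ratio, per the file headers. Significance is a deposited −log10 q, from which q was computed. Starts counted from 0, and 1 was added (97 HS gene rows then equal a reference gene start, against 5 before). Rows of a list with the same fold and q and at most 1 base between them were joined, a step that rebuilt 100% of 2000 simulated peaks. The simulated peaks were split by that same rule and set well apart. Their result therefore checks the code, and does not measure errors of joining in the real lists. Symbols and coding genes came from RefSeq TAIR10.1, used for names and for checks of gene starts. Gained means a peak in the later list and none at time 0.

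The 4 genes, and the lists of 10 Clp ATPases, 19 partners and 10 memory genes, were chosen with earlier results of these data known. Genes named were these 4, genes on their peaks, up to 4 per list by highest fold, once for HS and once for W10min, and the 5 nearest in pattern to HSP101 and HSA32. Exceptions are the 7 Clp ATPases without a peak, the organelle HSP70 genes and 4 memory genes. With 1 pooled list per condition no test was run. Alternatives were 2 thresholds on q, equal numbers of peaks, promoter or gene rows only, both time 0 lists as control, control by overlap, and unjoined rows. The planned count of heat shock elements was not run, since no genome sequence was used here. Python 3.11.15, pandas 2.3.3 and numpy 2.4.6 were used.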

Additional observations from a re-analysis of the deposited data

How the results depend on the processing

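Of 66 alternative values, 51 were equal to the value reported or near it, within 1.5 times for a count or 1 percentage point for a rank. All 4 genes kept their HS peak at a q of at most 0.05 or 1e-05 and with 509 peaks from every list. They also kept it in promoter or gene rows only, as they had to, since each HS peak covers both. In HS over HT0, all 4 were gained under each of these settings and by overlap, and 2 (CLPB3 and HSA32) with both time 0 lists as control. Under q, list length and row type this gain only repeats the HS count, since HT0 held no peak at the 4 genes. By overlap it had to stay, since no HT0 peak lay closer than 18818 bp to the HS peaks of the 4 genes. The settings of q, list length and row type only remove rows. The counts of 0 in HT0 and W24h, and the 0 gained in W24h, therefore could not change. The counts with promoter or gene rows only in WT0, W10min and W3h could not change either, since all 9 peaks cover both. Gains over WT0 with those rows were fixed in the same way. All of these are among the 51 and are no support, so the number 51 is no measure of stability.

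The counts in the wounding series, WT0 included, depend on weak peaks. The share of all coding genes was not computed at the stricter settings, so the falls below cannot be set against it. Of all listed peaks, 51.1% in WT0, 55.8% in W10min and 61.5% in W3h had a q of at most 0.05. Members in WT0 numbered 1 (HSP101) at a q of at most 0.05, 0 at 1e-05 and 0 with equal numbers of peaks, against 2. Those in W10min numbered 1 (HSP101) at 1e-05, against 2, and those in W3h 0 at 0.05 and 0 at 1e-05, against 1. Gained over WT0 in W10min, against 0, were 1 (CLPB4) at 0.05, 1 (HSP101) at 1e-05, 2 with equal numbers of peaks and 1 (HSP101) when a reciprocal overlap of 50% was required. In W3h 1 (HSP101) was gained with equal numbers of peaks, against 0. With rows not joined, the share of peaks with a higher fold than HSP101 was 38.1% in WT0, against 34.8%, 12.0% in W10min, against 8.51%, and 68.3% in W3h, against 62.8%. No paired analysis was possible because each condition has 1 pooled list. No replicate could be left out for the same reason.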
